A study of Mus musculus with 6 samples.

Results

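Regulators of G-protein signaling (RGS proteins) were followed at the RNA level in AML blasts with and without *Tet2*, as 9 genes: *Rgs1*, *Rgs2*, *Rgs3*, *Rgs16* and *Rgs18* of the R4 subfamily, *Rgs10*, *Rgs12* and *Rgs14* of the R12 subfamily, and *Rgs19* of the RZ subfamily. They are 9 of the 53458 genes in the table, and all 9 were among the 22170 genes with enough reads to be tested. The genes were chosen with measured values of these same libraries known, so their levels and differences between genotypes are given as a description, and no result is drawn from calls of members in the test across all genes.

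The libraries came from a mouse model of *CEBPA*-mutant AML, and the comparison asks how loss of TET2, an enzyme that oxidizes methylated cytosine, alters gene expression in the blasts. Blasts of 3 mice were Cebpa-/p30 Tet2+/+ (mice 19, 23 and 24) and blasts of 3 mice were Cebpa-/p30 Tet2-/- (mice 5, 7 and 8), with 1 library per mouse. All 6 mice therefore carried the same *Cebpa* lesion, in which one allele makes only the p30 isoform and the other was deleted, and the strain is labelled C57BL/6. The study's methods name C57BL/6J donors and congenic C57BL/6J.SJL recipients, so the blasts are donor cells in a congenic host. Bone marrow was transplanted into irradiated recipients, the floxed alleles were then deleted with the interferon-inducible *Mx1-Cre*, and live donor-derived cells negative for CD3, B220 and Ter119 were sorted from the leukemic mice. The gate takes all such cells rather than 1 cell type, each mouse is a separate leukemia, and the recipients were young adult females when transplanted. Bulk RNA-seq cannot tell fewer cells of a type from less RNA per cell.

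RGS proteins bind the active, GTP-bound α subunit of a heterotrimeric G protein and speed up its hydrolysis of GTP, which ends signaling from receptors such as those for chemokines. R4 proteins are mostly small and consist of little more than the RGS domain. R12 proteins other than RGS10 are larger and carry further domains, and RZ proteins are small with a cysteine-rich stretch. In blood cells they are best known for limiting migration toward chemokines.

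Total estimated reads ranged from 13036643 to 32855343 per mouse. Reads of *Tet2* summed over the gene, between 73.6 and 98.4 CPM (counts relative to TMM-normalized library size) in Tet2+/+ and between 79.4 and 111 CPM in Tet2-/- blasts, do not check the labels, since a floxed allele loses only part of the gene. The blast and granule genes (*Mpo*, *Elane*, *Ctsg*, *Prtn3*, *Itgam*, *Cebpe* and *Kit*) summed to between 3186 and 3482 TPM in Tet2+/+ and between 2835 and 3706 TPM in Tet2-/- mice. Genes of mature neutrophils, such as *Ltf* and *S100a8*, summed to between 20213.4 and 92849.1 TPM in Tet2+/+ and between 42048.8 and 183498.7 TPM in Tet2-/- mice, lowest in mouse 23 and highest in mouse 7.

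In CPM, *Rgs1* and *Rgs18* were the members with the clearest separation of the genotypes, both with lower levels in TET2-deficient blasts. *Rgs12* was separated by a narrow margin in CPM. In TPM, *Rgs12* was at between 5.18 and 7.30 in Tet2+/+ and between 1.72 and 4.63 in Tet2-/- mice. *Rgs18* was at between 37.7 and 51.2 against between 26.25 and 35.4 TPM, so both were separated by narrow margins in that unit. The other 6 members had overlapping groups. With edgeR's quasi-likelihood test and Benjamini-Hochberg adjustment over all genes, 0 of the 9 members were lower or higher at an adjusted p under 0.05, against 0.0451% of all tested genes called lower and 0% called higher. At an unadjusted p under 0.05, 2 members were lower and 0 higher (5.12% and 3% of all genes). With DESeq2 on the same counts, 1 member, *Rgs1*, was called lower and 0 higher (1.83% and 0.331% of all genes). Of the members, 3 were lower without overlap between the genotypes and 0 were higher, against 7.94% and 6.41% of all genes. Nothing is read from these counts, since the members were selected on this same contrast. The median log2 fold change was 0.04 over the members and 0.00 over all genes tested, with 4 members below 0 and 5 above.

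**Figure D1:**
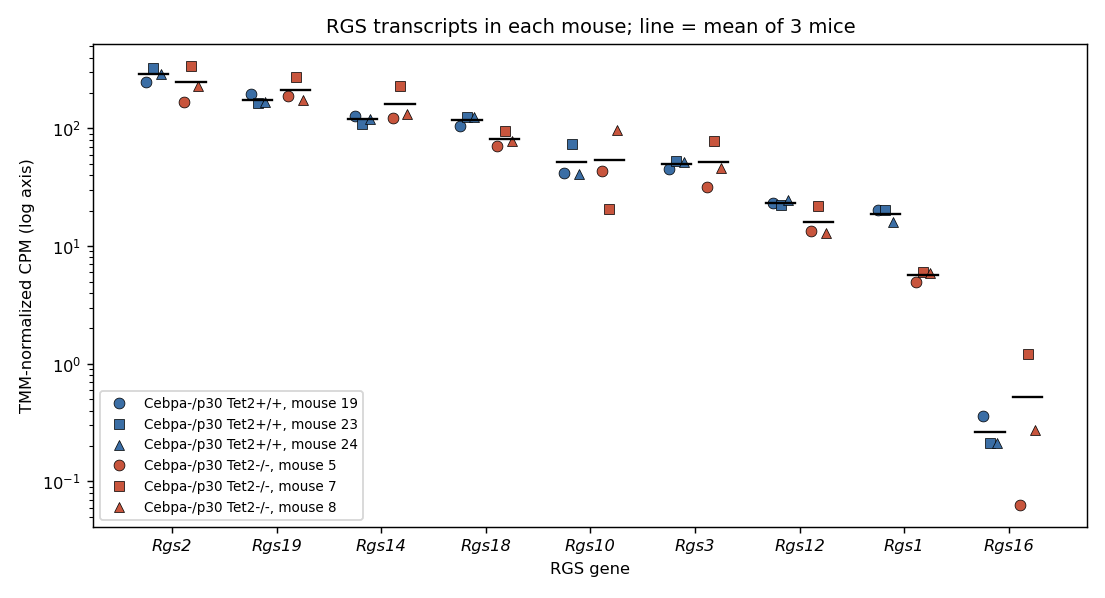
TMM-normalized CPM of the 9 RGS genes on a log axis, 1 point per mouse (blue, Cebpa-/p30 Tet2+/+; red, Cebpa-/p30 Tet2-/-) with a line at the mean of 3 mice. The points of the genotypes are apart for *Rgs1* (16.0 to 20.4 against 5.00 to 5.98 CPM) and *Rgs18*, and interleave for *Rgs10*.

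*Rgs1*, which restrains chemokine receptor signaling in lymphocytes, lies on the minus strand of chromosome 1 (GRCm38, chr1:144242296-144249242). It was measured at 20.1, 20.4 and 16.0 CPM in Tet2+/+ mice 19, 23 and 24. In Tet2-/- mice 5, 7 and 8 it was at 5.00, 5.98 and 5.92 CPM. Every TET2-deficient mouse was thus below every Tet2+/+ mouse, and the 3 values of each genotype lay close together. These levels rest on between 227 and 380 reads per Tet2+/+ mouse and between 93 and 158 reads per Tet2-/- mouse. The level was 3.34-fold higher in Tet2+/+ blasts, a log2 fold change of -1.74 ± 0.23 (SE, n = 3 mice per genotype). It lay between -1.91 and -1.58 under all 15 alternative ways of processing tried, including leaving out each mouse.

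Plasma cell genes differed in the same direction as *Rgs1*. The 8 plasma cell genes, led by *Igkc*, *Ighm* and *Jchain*, summed to between 1101.6 and 1802.0 TPM in Tet2+/+ and between 282.5 and 452.0 TPM in Tet2-/- mice, with all 8 below 0 in log2 fold change and 5 without overlap. Of their defining genes, *Sdc1* and *Tnfrsf17* were under 1 TPM in every mouse. The 8 basophil and mast cell genes summed to between 254.5 and 302.3 TPM in Tet2+/+ and between 59.6 and 138.0 TPM in Tet2-/- mice, with 3 of 5 tested genes below 0 in log2 fold change and 2 above. *Cpa3* and *Cd200r3* were lower without overlap, the latter at between 1.78 and 5.12 against between 0.44 and 0.90 TPM. Without *Cpa3* the list summed to between 19.5 and 81.2 TPM in Tet2+/+ and between 45.6 and 105.0 TPM in Tet2-/- mice, which overlapped. *Tpsb2* was listed at 0 in every mouse, and *Fcer1a* and *Prss34* were under 1 TPM. B cell genes summed to between 12.4 and 40.9 TPM against between 11.1 and 25.6 TPM, and T and NK cell genes to between 105.2 and 142.5 TPM against between 77.9 and 158.4 TPM, so these groups overlapped. Most of the T and NK cell sum was *Nkg7*, and without it the list was at between 28.0 and 36.3 TPM in Tet2+/+ and between 12.8 and 35.9 TPM in Tet2-/- mice, which also overlapped. Of the 10 tested genes of this list, 5 were below 0 in log2 fold change and 5 above, the latter including *Nkg7* at 0.43. *Ncr1*, a receptor of NK cells, was lower without overlap, at between 1.83 and 2.68 against between 0.23 and 0.62 TPM. The NK cell genes *Klrb1c* and *Gzma* had log2 fold changes of -1.06 and -0.84 with overlapping groups. The gate has no NK cell marker. Plasma cells express little B220 and can pass the gate. The part of these cells in the *Rgs1* difference was not tested.

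*Rgs18*, known from megakaryocytes, platelets and blood progenitors, lies farther along the same chromosome (chr1:144752683-144775435, minus strand). Its level was 104.0, 123.9 and 125.5 CPM in Tet2+/+ mice 19, 23 and 24, and 70.2, 95.2 and 78.0 CPM in Tet2-/- mice 5, 7 and 8. The highest TET2-deficient value, in mouse 7, was below the lowest Tet2+/+ value, in mouse 19. The log2 fold change was -0.54 ± 0.18 (SE, n = 3 mice per genotype), a 1.45-fold higher level in Tet2+/+ blasts, and between -0.73 and -0.45 under the alternatives. The 9 megakaryocyte and platelet genes also summed higher in Tet2+/+ (between 15.4 and 24.8 TPM) than in Tet2-/- mice (between 7.68 and 11.2 TPM). This was carried by *Itga2b*, an integrin also made by progenitors, at between 13.1 and 23.4 against between 2.73 and 7.05 TPM. Without it the list summed to between 1.18 and 9.75 TPM against between 1.84 and 4.96 TPM, which overlapped, and *Ppbp*, *Gp1ba*, *Gp1bb* and *Gp6* stayed under 1 TPM in every mouse. Their part in the *Rgs18* difference was not tested.

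*Rgs2*, which acts preferentially on the Gq class of α subunits, lies at the low-coordinate end of the same gene cluster (chr1:143999338-144004161, minus strand). It stood at 249.7, 326.0 and 287.8 CPM in mice 19, 23 and 24, and at 169.3, 339.6 and 231.3 CPM in mice 5, 7 and 8. Both the lowest and the highest level in CPM were found in TET2-deficient mice, 5 and 7. In TPM, mouse 5 was again the lowest at 88.6, but Tet2+/+ mice 23 and 24 (186.2 and 175.3) were above mouse 7 (158.6). The log2 fold change of -0.22 ± 0.28 (SE, n = 3 mice per genotype) moved to -0.53 without mouse 7 and to -0.02 without mouse 5.

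*Rgs2*, *Rgs1* and *Rgs18* sit in 1 cluster of chromosome 1 together with *Rgs13* and *Rgs21*, all read from the minus strand. Counted from the start site of *Rgs2*, those of *Rgs13*, *Rgs1*, *Rgs21* and *Rgs18* lie 173.2, 245.1, 563.5 and 771.3 kb away. *Rgs13* had 3 reads over all 6 mice and *Rgs21* had 0. The median level over the 6 mice was 146.6 TPM for *Rgs2*, 5.34 TPM for *Rgs1* and 36.6 TPM for *Rgs18*. Within the cluster, the log2 fold changes ran from -1.74 for *Rgs1* through -0.54 for *Rgs18* to -0.22 for *Rgs2*. The differences among the 3 genes were not tested.

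**Figure D2:**
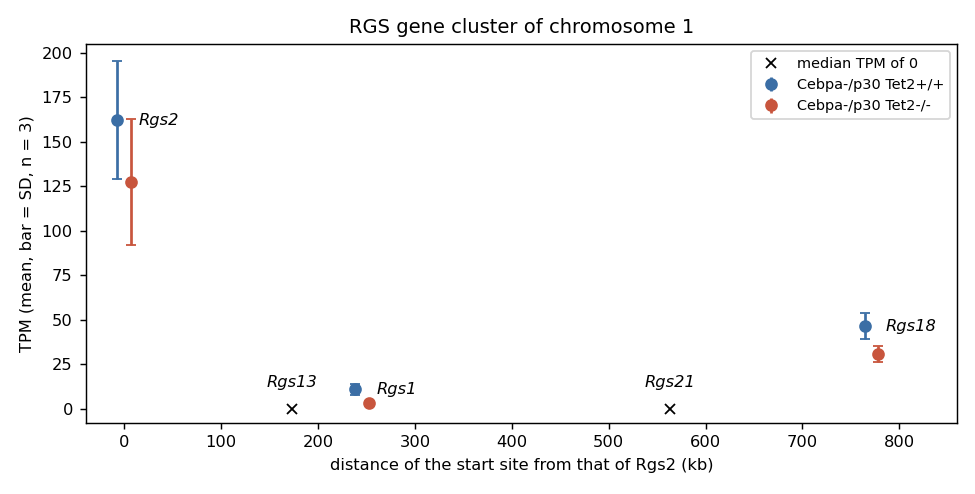
Level of the RGS genes of the chromosome 1 cluster (TPM, mean of 3 mice with SD) against the distance of each start site from that of *Rgs2* (kb), with points of a gene set slightly apart. *Rgs13* and *Rgs21*, marked by crosses at a median TPM of 0, lie between the expressed genes *Rgs2*, *Rgs1* and *Rgs18*.

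*Rgs16*, a regulator of Gi and Gq signaling that is induced by activation in lymphocytes, also lies on chromosome 1 but outside this cluster (chr1:153740349-153745468, plus strand). It was close to undetected, with 6, 4 and 3 reads in mice 19, 23 and 24 and with 2, 19 and 5 reads in mice 5, 7 and 8. The 19 reads of mouse 7 corresponded to 1.22 CPM, and the other 5 mice had between 0.063 and 0.36 CPM. The log2 fold change was 0.90 ± 1.02 (SE, n = 3 mice per genotype) with mouse 7 and -0.72 without it, so no direction can be given at this depth.

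*Rgs3*, an R4 member with long forms that carry extra domains, lies on the plus strand of chromosome 4 (chr4:62559847-62704001). It was at 44.9, 52.4 and 51.8 CPM in mice 19, 23 and 24 and at 31.7, 78.1 and 46.3 CPM in mice 5, 7 and 8. The TET2-deficient mice lay on both sides of the Tet2+/+ mice, and the log2 fold change was 0.06 ± 0.32 (SE, n = 3 mice per genotype). It turned to -0.35 without mouse 7 and to -0.01 without mouse 19, and it was also below 0 with library size scaling (-0.14) and with limma on log2(TPM + 1) (-0.18) or log2(TPM + 0.1) (-0.20).

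RefSeq gives 2 start sites for *Rgs3*, and neither held a substantial share of its reads. The transcript starting within 100 bases of the first site had 6.2 reads in mouse 23 and 0 in the other 5 mice. For the second site the values were 20.3 reads in mouse 23 and 0 in the others. A further transcript, Rgs3-202, starts at position 62619520, more than 100 bases before the second site. It had 6.38 reads in mouse 24 and 2.58 in mouse 7. The reads lay instead on shorter forms, above all on the coding transcript Rgs3-204, which starts at position 62674039 and had between 18.1% and 59.8% of the reads in Tet2+/+ and between 38.2% and 74.6% in Tet2-/- mice, and on the intron-retaining transcript Rgs3-214, with between 5.45% and 40.7% over the 6 mice. The assignment between these forms is uncertain. Rgs3-204, Rgs3-206 and Rgs3-211 match the gene model *Gm5763* at 95% identity or more over at least 50% of their length, and *Gm5763* was given 70 reads in mouse 23, 46 in mouse 8 and 0 in the others. The 250 bases before each of the near-silent starts are printed to contrast them with *Rgs12*, whose reads follow its first start (GRCm38.p6, plus strand, 5′ to 3′, RefSeq, CG dinucleotides in capitals).
Rgs3 first start, chr4:62559597-62559846: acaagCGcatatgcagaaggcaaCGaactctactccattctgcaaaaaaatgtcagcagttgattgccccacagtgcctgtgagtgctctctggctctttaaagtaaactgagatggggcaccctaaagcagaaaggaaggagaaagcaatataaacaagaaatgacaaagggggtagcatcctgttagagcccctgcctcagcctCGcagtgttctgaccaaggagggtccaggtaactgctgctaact
Rgs3 second start, chr4:62619422-62619671: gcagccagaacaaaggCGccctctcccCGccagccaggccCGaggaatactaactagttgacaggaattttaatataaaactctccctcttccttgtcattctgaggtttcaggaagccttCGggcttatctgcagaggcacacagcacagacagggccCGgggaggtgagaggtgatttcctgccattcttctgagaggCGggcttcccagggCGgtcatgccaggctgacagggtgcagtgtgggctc
These windows hold 3 and 7 CG dinucleotides. Over 32851 mouse promoter windows of 250 bases the median is 6.

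*Rgs12* is a long R12 protein that can bind Ras as well as Gα, and lies on the plus strand of chromosome 5 (chr5:34949445-35039644). Its level was 23.1, 22.3 and 24.5 CPM in Tet2+/+ mice 19, 23 and 24. The TET2-deficient mice 5, 7 and 8 were at 13.4, 22.1 and 12.9 CPM. Mice 5 and 8 were well below the Tet2+/+ range, whereas mouse 7 stood just below mouse 23, and the groups overlapped with RLE scaling factors, filterByExpr, DESeq2 on the same counts and edgeR on length-scaled counts, and when mouse 5 or mouse 8 was left out. As a log2 fold change, the difference was -0.53 ± 0.26 (SE, n = 3 mice per genotype). Leaving out mouse 7 gave -0.82, leaving out mouse 5 gave -0.42 and leaving out mouse 8 gave -0.39. Length-scaled counts gave -0.74 with edgeR and -0.73 with DESeq2, and library size scaling gave -0.73. With limma on log2(TPM + 0.1) and log2(TPM + 1) the value was -0.95 and -0.77. Exons of *Rgs12* share 5.50% of their bases with the antisense gene *Gm43791*, which was given between 0 and 14 reads. The library kit does not mark strand, so reads of that stretch cannot be divided between both genes.

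RefSeq gives 2 start sites for *Rgs12* as well, and here the reads favored the first. The transcripts starting there had 80.9%, 77.3% and 84.7% of the reads in Tet2+/+ mice 19, 23 and 24, and in Tet2-/- mice 5, 7 and 8 they had 75.7%, 86.0% and 96.0%. Those of the second start had 6.56%, 7.70% and 10.9% in Tet2+/+ and 12.4%, 6.71% and 0.00% in Tet2-/- mice. Both sets of shares overlapped between genotypes, and the first start carried most reads in all 6 mice. The windows before both starts are given in the same form as for *Rgs3*.
Rgs12 first start, chr5:34949198-34949447: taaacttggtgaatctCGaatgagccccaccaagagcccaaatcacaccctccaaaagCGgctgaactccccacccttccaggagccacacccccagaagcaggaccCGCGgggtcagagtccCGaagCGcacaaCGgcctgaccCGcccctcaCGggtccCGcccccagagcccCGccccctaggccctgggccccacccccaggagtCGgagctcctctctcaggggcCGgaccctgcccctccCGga
Rgs12 second start, chr5:34998828-34999077: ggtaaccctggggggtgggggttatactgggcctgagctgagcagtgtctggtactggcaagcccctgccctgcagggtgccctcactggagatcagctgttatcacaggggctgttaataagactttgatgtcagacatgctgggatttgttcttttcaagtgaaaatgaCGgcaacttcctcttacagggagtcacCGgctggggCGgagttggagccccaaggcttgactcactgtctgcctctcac
The first window holds 14 CG dinucleotides, a number reached by 29.4% of all windows, and the second holds 3. The letters GATAA, searched on both strands, occurred in the second window of *Rgs12*, the second of *Rgs3* and the window of *Rgs16*, that is in 3 of 10 windows of 6 members, and in 22.6% of all windows. *Rgs2* and *Rgs10* had 1 start each, with 30 and 27 CG dinucleotides, and *Rgs19* had 3 starts with 20, 34 and 4.

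*Rgs14*, the other long R12 member with Ras-binding and Gα-binding parts, lies on chromosome 13 (chr13:55369732-55384687, plus strand). Its level was 128.5, 109.1 and 120.1 CPM in mice 19, 23 and 24, and 121.5, 229.5 and 132.8 CPM in mice 5, 7 and 8. Mouse 7 stood apart above all others, while mice 5 and 8 were within or just above the Tet2+/+ range. Between genotypes this came to a log2 fold change of 0.44 ± 0.27 (SE, n = 3 mice per genotype) and 0.09 without mouse 7.

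*Rgs19*, also known as GAIP, acts on Gi-class α subunits and lies on chromosome 2 (chr2:181688419-181693977, minus strand). It was at 195.8, 164.1 and 166.9 CPM in mice 19, 23 and 24 and at 188.7, 273.8 and 172.8 CPM in mice 5, 7 and 8. Here too mouse 7 was the highest and the other TET2-deficient mice fell within the Tet2+/+ range. The log2 fold change of 0.27 ± 0.22 (SE, n = 3 mice per genotype) became 0.04 without mouse 7. Mouse 7 also had the highest and mouse 23 the lowest sum of mature neutrophil genes. In CPM, *Rgs14* and *Rgs19* were highest and lowest in the same mice. In TPM, the unit of that sum, *Rgs14* was lowest in mouse 5, at 30.98 against 34.77 in mouse 23. *Rgs19* was at nearly the same TPM in mice 23 and 24, 392.1 and 392.5. The part of maturing neutrophils in both genes was not tested.

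*Rgs10*, a small R12 member known from macrophages and microglia, lies on chromosome 7 (chr7:128373621-128418758, minus strand) and varied widely among mice of a genotype. The level was 41.7, 73.7 and 40.8 CPM in mice 19, 23 and 24 and 43.2, 20.8 and 96.5 CPM in mice 5, 7 and 8, a 4.63-fold range over the 6 mice. Both the lowest and the highest level belonged to TET2-deficient mice. The log2 fold change was 0.04 ± 0.53 (SE, n = 3 mice per genotype), and ran from -0.70 without mouse 8 to 0.42 without mouse 7. It also turned to -0.10 without mouse 19, to -0.11 without mouse 24, to -0.10 with library size scaling, to -0.21 on length-scaled counts with edgeR or DESeq2, and to -0.58 and -0.56 with limma on log2(TPM + 0.1) and log2(TPM + 1).

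Genes of monocytes and macrophages, such as *Csf1r* and *Ccr2*, summed to 276.4, 667.2 and 271.3 TPM in mice 19, 23 and 24 and to 425.4, 166.5 and 849.4 TPM in mice 5, 7 and 8. Ranked from high to low, the mice ran 8, 23, 5, 19, 24 and 7, which is also their order for *Rgs10* in CPM. In TPM the order for *Rgs10* was 8, 23, 24, 19, 5 and 7, so the match holds for 1 of the 2 units. All 11 genes of the list were detected at 1 TPM or more in at least 1 mouse. Their part in the level of *Rgs10* was not tested.

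**Figure D3:**
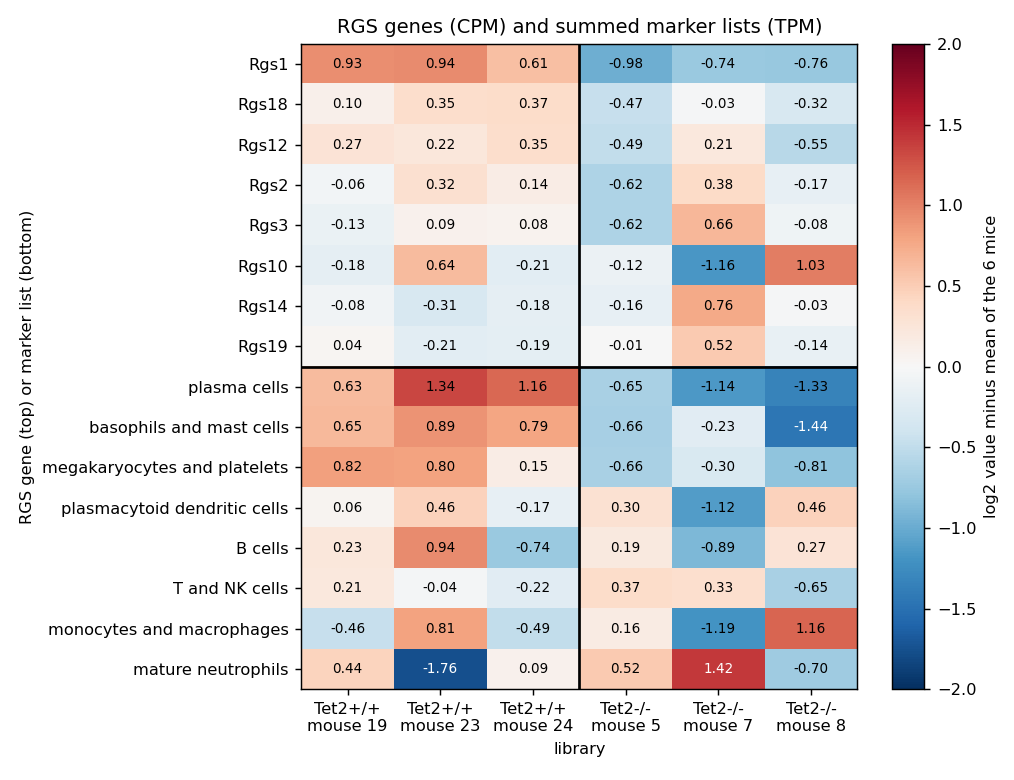
Log2 value minus the mean of the 6 mice for 8 RGS genes (CPM with 0.5 added, top) and for summed marker genes of other cell types (TPM, bottom), 1 column per mouse. *Rgs1* is above its mean in the 3 Tet2+/+ mice and below it in the 3 Tet2-/- mice, as are the plasma cell, basophil and mast cell, and megakaryocyte lists, whereas *Rgs10*, in CPM, follows the order of the monocyte list.

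**Figure D4:**
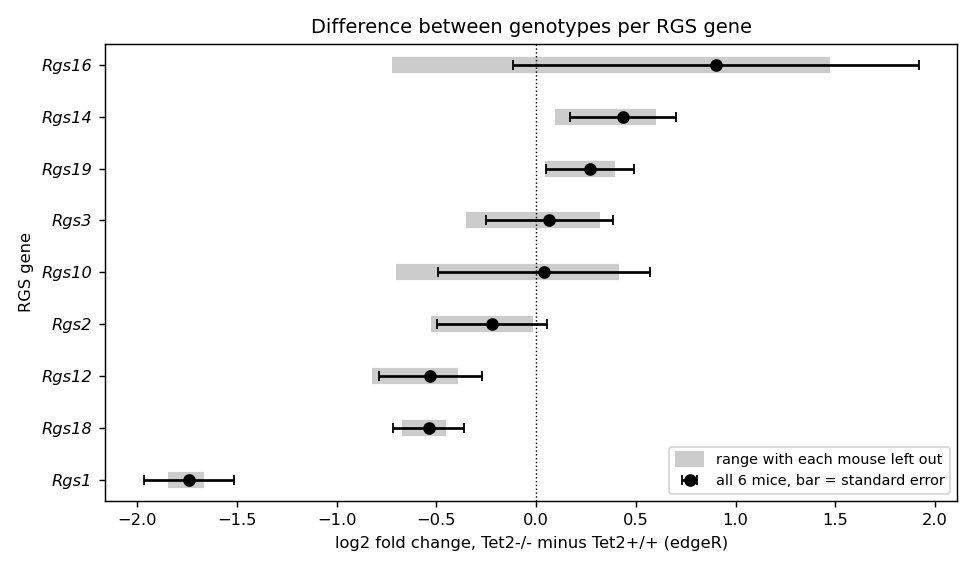
Log2 fold change of each RGS gene, Tet2-/- minus Tet2+/+, from edgeR (point, with a bar of 1 standard error) and the range when each mouse is left out in turn (grey). The grey ranges of *Rgs3*, *Rgs10* and *Rgs16* include 0, and that of *Rgs1* runs from -1.85 to -1.67.

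On a scale per transcript length (TPM), *Rgs19* was the most abundant member, between 392.1 and 641.5 TPM, followed by *Rgs2* (between 88.6 and 186.2 TPM). *Rgs10*, *Rgs18*, *Rgs14* and *Rgs3* followed with medians of 46.9, 36.6, 35.6 and 22.4 TPM, and their ranges over the 6 mice overlapped one another. *Rgs1* and *Rgs12* came next with medians of 5.34 and 4.91 TPM and overlapping ranges, and *Rgs16* was last at 0.062 TPM. The order of *Rgs1* and *Rgs12* differed by genotype, with means of 10.8 and 6.44 TPM in Tet2+/+ and 2.85 and 3.55 TPM in Tet2-/- mice. Together the 9 genes made up between 99.3% and 99.9% of the TPM of the 21 RGS genes in the table. The first rank of *Rgs19* rests on its shortest forms: the noncoding transcript Rgs19-209, 266 bases long, had between 6.17% and 8.44% of the reads of the gene but between 55.2% and 63.9% of its TPM. Restricted to coding transcripts, *Rgs19* was at between 95.2 and 143.7 TPM and *Rgs2* at between 51.2 and 109.8 TPM, and these ranges overlapped.

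The 9 genes have 71 annotated transcripts, of which 12 had no reads in any mouse. *Rgs16* and *Rgs18* have 1 transcript each. In *Rgs10*, *Rgs12*, *Rgs14*, *Rgs19* and *Rgs2*, coding transcripts held between 70.6% and 97.7% of the reads in every mouse. In *Rgs1* and *Rgs3* the coding shares were lower in some or all mice. In *Rgs1*, transcripts of the nonsense-mediated decay class held 61.0%, 61.0% and 60.4% of the reads in Tet2+/+ mice 19, 23 and 24, and in Tet2-/- mice 5, 7 and 8 they held 67.5%, 73.2% and 58.9%. Intron-retaining transcripts held between 21.4% and 41.1%, and coding transcripts only between 0.00% and 10.7%. The longest coding transcript had at most 2.45% of the reads in any mouse. In *Rgs3*, the coding share was 32.1%, 25.1% and 63.3% in Tet2+/+ and 49.9%, 78.3% and 58.9% in Tet2-/- mice, which overlapped.

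**Figure D5:**
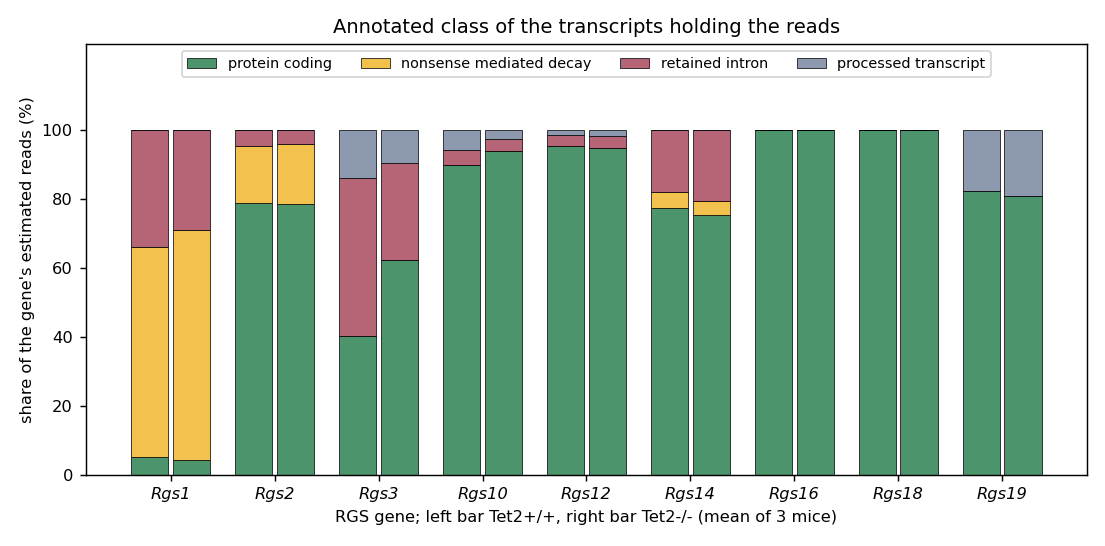
Share of the estimated reads of each RGS gene by annotated class of transcript (%), mean of 3 mice, with Cebpa-/p30 Tet2+/+ in the left and Cebpa-/p30 Tet2-/- in the right bar. Coding transcripts hold a mean of 5.27% and 4.39% of the reads of *Rgs1*, against 82.4% and 81.0% of those of *Rgs19*.

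Of 16 further RGS family genes and partners, 10 had enough reads to be tested, 0 passed at an adjusted p under 0.05 with edgeR, and 1 was lower and 0 higher at an unadjusted p under 0.05 (5.12% and 3% of all genes). Their median log2 fold change was -0.24. The lower one was *Rgs5*, an R4 gene known from pericytes, at 2.45, 11.0 and 16.6 CPM in mice 19, 23 and 24 and 2.85, 1.74 and 0.43 CPM in mice 5, 7 and 8, with overlapping groups and an edgeR adjusted p of 0.551. The stromal list, which contains *Rgs5* itself, summed to between 21.1 and 59.7 TPM in Tet2+/+ and between 13.4 and 29.6 TPM in Tet2-/- mice. Most of this sum was *Pecam1*, which blood cells also express, and without it the list summed to between 2.54 and 7.55 TPM and between 0.36 and 3.43 TPM, so the groups overlapped. *Axin1*, a scaffold of the Wnt pathway with an RGS domain, had overlapping groups in CPM, with between 67.9 and 75.0 CPM and between 69.3 and 78.3 CPM. In TPM it was at between 55.5 and 65.4 in Tet2+/+ and between 42.1 and 45.3 in Tet2-/- mice, without overlap. The neural genes *Rgs8* and *Rgs11* and the anchoring protein gene *Rgs9bp* had means of 1.51, 1.78 and 1.12 CPM and overlapping groups.

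The other parts of the pathway were covered by 155 genes for G protein subunits, other regulators, receptors of myeloid cells, receptor kinases, arrestins and effectors, of which 146 were tested. At an adjusted p under 0.05, edgeR called 0 lower and 0 higher, and DESeq2 on the same counts called 4 lower and 1 higher (2.90% and 0.725% of the 138 with an adjusted p, against 1.83% and 0.331% of all genes). At an unadjusted p under 0.05, edgeR had 11 lower (7.53%) and 6 higher (4.11%), against 5.12% and 3% of all genes. The median log2 fold change was 0.16.

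Among α subunits, the substrates of RGS proteins, 14 of 16 were tested and 1 was lower and 0 higher at an unadjusted p under 0.05 (5.12% and 3% of all genes). The lower one, named after its values were seen, was *Gna14*, at a mean of only 1.6 CPM and without overlap. It had a log2 fold change of -2.90 ± 0.65 (SE, edgeR adjusted p = 0.311), and -2.20 without mouse 19. *Gnai2*, the main Gi subunit of blood cells, was at 925.5, 872.3 and 856.7 CPM in mice 19, 23 and 24 and at 1080.1, 1385.2 and 1072.7 CPM in mice 5, 7 and 8. The groups did not overlap, and the log2 fold change was 0.41 ± 0.21 (SE, edgeR adjusted p = 0.664). Of 17 β and γ subunit genes, 14 were tested, with 3 lower and 1 higher at an unadjusted p under 0.05, against the same 5.12% and 3% of all genes. The lower ones, named after their values were seen, were *Gnb4*, *Gng3* and *Gng7*, with log2 fold changes of -3.21, -1.23 and -1.25 and means of only 2.90, 0.92 and 2.40 CPM (edgeR adjusted p = 0.562, 0.604 and 0.507). The value for *Gnb4* rested on mouse 19, at 13.3 CPM against 1.07 and 1.34 CPM in mice 23 and 24 and between 0.26 and 0.71 CPM in the Tet2-/- mice, and leaving it out gave -1.09. The higher one was *Gnb2*, between 346.6 and 428.4 CPM in Tet2+/+ and between 450.1 and 633.8 CPM in Tet2-/- mice (edgeR adjusted p = 0.604).

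*Gpsm1*, which like RGS12 and RGS14 binds inactive Gα through GoLoco motifs, was 1 of 10 other regulators, and the only one of them at an unadjusted p under 0.05. It had 16.6, 15.9 and 16.0 CPM in Tet2+/+ mice 19, 23 and 24 and 8.16, 8.62 and 8.79 CPM in Tet2-/- mice 5, 7 and 8. The mice of each genotype were nearly alike and the groups apart, with a log2 fold change of -0.92 ± 0.20 (SE, edgeR adjusted p = 0.294). None of the 8 receptor kinases and arrestins was at an unadjusted p under 0.05.

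Of 67 receptors of myeloid cells, 65 were tested, with 4 lower (6.15%) and 5 higher (7.69%) at an unadjusted p under 0.05, against 5.12% and 3% of all genes, and a median log2 fold change of 0.32. *Adgrg1*, an adhesion receptor of blood stem cells, was at 214.1, 190.4 and 145.7 CPM in mice 19, 23 and 24 and at 67.8, 38.2 and 51.8 CPM in mice 5, 7 and 8. The groups were far apart, with a log2 fold change of -1.80 ± 0.26 (SE, edgeR adjusted p = 0.122). The chemokine receptor *Ccr1* and the fatty acid receptor *Gpr84* lay higher in the Tet2-/- mice without overlap, with log2 fold changes of 0.61 and 1.19 (edgeR adjusted p = 0.599 and 0.629). *Gpr84* was at 15.6, 3.64 and 5.35 CPM in mice 19, 23 and 24 and at 18.95, 17.4 and 19.6 CPM in mice 5, 7 and 8. Mouse 19 was close to the Tet2-/- range, and leaving it out gave a log2 fold change of 2.05.

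Of 37 effectors, 35 were tested, with 2 lower (5.71%, against 5.12% of all genes) and 0 higher (3% of all genes) at an unadjusted p under 0.05. The adenylyl cyclase gene *Adcy6* was at 38.5, 68.4 and 76.6 CPM in mice 19, 23 and 24 and at 15.1, 2.51 and 8.25 CPM in mice 5, 7 and 8 (log2 fold change -2.81 ± 0.62, SE, edgeR adjusted p = 0.310). Leaving out mouse 5 gave -3.52. Another cyclase, *Adcy9*, and *Pik3r5*, the regulatory subunit that couples PI3Kγ to Gβγ, were higher in the Tet2-/- mice without overlap (log2 fold changes 0.63 and 0.39, edgeR adjusted p of both 0.633).

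Likeness of pattern over the 6 mice was measured as the root mean square difference of centred log2(CPM + 0.5) values, over the 13838 other genes that averaged 1 CPM or more. Closest to *Rgs1* were *Siglech* at 0.087, *D630003M21Rik* at 0.15 and *Mid1* at 0.19. The added 0.5 narrows differences at low CPM, and other values of it were not tried. For *Siglech* and *D630003M21Rik* the log2 fold changes from edgeR were -2.42 and -3.15, against -1.74 for *Rgs1*. *Siglech* is a receptor of plasmacytoid dendritic cells, which in mice carry B220, a marker that the gate excludes. It was at 2.09, 2.41 and 1.62 CPM in mice 19, 23 and 24 and at 0.32, 0.39 and 0.43 CPM in mice 5, 7 and 8. A list of 11 genes of that cell type, added after this was seen, summed to between 79.2 and 123.2 TPM in Tet2+/+ and between 40.9 and 123.1 TPM in Tet2-/- mice, so the groups overlapped. Of its 10 tested genes, 7 were below 0 in log2 fold change and 3 above, 2 were lower without overlap, and *Bst2*, *Irf8* and *Il3ra* made up most of the sum. *Pacsin1*, *Ccr9*, *Klk1* and *Siglech* stayed under 1 TPM in every mouse. Whether such cells were left after sorting, and their part in the *Rgs1* difference, was not tested. Closest to *Rgs18* were *Hacl1* (0.085), *Bbs4* (0.087) and the DNA methyltransferase gene *Dnmt3a* (0.091), the last at 91.0, 114.0 and 122.3 CPM in mice 19, 23 and 24 and at 62.0, 77.5 and 75.9 CPM in mice 5, 7 and 8.

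*Rgs14* had its nearest neighbours in *Abr* (0.057), *Zyx* (0.064) and *Iqgap1* (0.064), and *Rgs19* in *Bbip1* (0.043), *Taf4* (0.046) and *Ranbp9* (0.048). All 6 were highest in mouse 7. The nearest to *Rgs10* were *Plpp2* (0.10), *Pdxk* (0.10) and *Tep1* (0.12), each highest in mouse 8 and lowest in mouse 7. For *Rgs12* they were *Gm45867*, *Tlcd2* and *2810454H06Rik*, for *Rgs2* *Gm26684*, *Ica1l* and *Olfr161*, and for *Rgs3* *Tmem230*, *Zswim3* and *Dbndd1*, at distances between 0.078 and 0.097.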

How the data were processed

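RNA from sorted AML blasts of 6 mice was sequenced in 1 library per mouse, from 200 ng of RNA with an unstranded TruSeq kit and 75 cycles. The authors estimated transcript abundance with Salmon 0.12.0 (mm10 and GRCm38.p6 are named in the submitters' processing notes). They deposited estimated counts of each transcript, which are not scaled to depth. They also deposited TPM, in which reads are divided by effective length and set to one total in each mouse. Short transcripts get high TPM per read.

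For each gene of GENCODE M21 (GRCm38), the estimated counts of its transcripts were added up and rounded, using pandas 2.3.3 in Python 3.11.15. The 112 transcripts without a gene, with at most 0.0416% of the reads, were left out. Genes with library-size-normalized counts summing to at least 10 entered a quasi-likelihood test in edgeR 4.0.16 (R 4.3.3), with TMM factors and no covariates. CPM are TMM-normalized. The biological coefficient of variation was 43.6%. No batch is given, and the mouse numbers do not pair the samples.

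The members and gene lists were chosen with earlier results of these data known. Named besides the members are *Tet2*, other RGS genes averaging 1 CPM or more, up to 3 genes per list with the largest log2 fold change among those without overlap and averaging 5 CPM or more, and the 3 nearest genes per member, which are not reported here for *Rgs16*. Outside this rule, *Gna14*, *Gnb4*, *Gng3*, *Gng7* and marker genes of other cell types were named after their values were seen. Alternatives were DESeq2 1.42.0, length-scaled counts, no filter, filterByExpr, library size or RLE scaling, limma 3.58.1 on log2 TPM, and leaving out each mouse. Shared sequence was searched with BLAST+ 2.17.0, figures were drawn with matplotlib 3.10.9, and promoter windows came from RefSeq. The windows given there were for 6 of the 9 members, not for *Rgs1*, *Rgs14* and *Rgs18*.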

Additional observations from a re-analysis of the deposited data

How the results depend on the processing

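*Rgs1*, *Rgs2*, *Rgs12*, *Rgs14*, *Rgs18* and *Rgs19* kept the sign of their log2 fold change in all 15 alternatives, whereas *Rgs3* took the other sign in 5, *Rgs10* in 8 and *Rgs16* in 1 of its 12. Scaling by library size moved the median of all genes by -0.17 in log2 fold change. In counts of members lower at an adjusted p under 0.05, 0 became 1 (*Rgs1*) with edgeR without a filter (0.192% of all genes) and with DESeq2 on the same (1.83%) or on length-scaled counts (1.76%). Leaving out each mouse gave between 1 and 4 members lower at an unadjusted p under 0.05, against between 3.58% and 5.54% of all genes. It gave between 2 and 4 members lower and between 0 and 2 higher without overlap, against between 11.0% and 15.2% and between 8.99% and 15.5% of all genes. Nothing is read from these counts.

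Over all genes, calls at an adjusted p under 0.05 depended on the tool. Lower genes numbered 10, against 326 with DESeq2, 327 with DESeq2 on length-scaled counts, 3 with edgeR on length-scaled counts, 62 without a filter and 17 with limma on log2(TPM + 0.1), and between 0 and 7 without each mouse. Higher genes numbered 0, against 59 and 64 with DESeq2 on the same and on length-scaled counts, 1 with RLE factors, 1 with filterByExpr, 4 without a filter, and 8 and 6 with limma at pseudocounts of 0.1 and 1. At an unadjusted p under 0.05, lower genes went from 1135 to 749 with limma at a pseudocount of 1. Higher genes went from 664 to 258 with library size scaling and to 298 and 299 with limma at 0.1 and 1, and lay between 250 and 1016 without each mouse.

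Of the 146 G protein list genes, adjusted calls of lower genes went from 0 to 4 and 5 with DESeq2 on the same and on length-scaled counts and to 1 without a filter, and of higher genes from 0 to 1 with DESeq2. Unadjusted, lower genes went from 11 to 6 and 6 with limma at 0.1 and 1, with between 6 and 12 without each mouse, and higher genes from 6 to 0 with library size scaling and to 1 and 1 with limma, with between 1 and 16 without each mouse. The cause was not tested. No paired analysis was possible because the mice of the genotypes share no numbers. With 3 mice per genotype, *Rgs16* and the transcript shares of *Rgs1* rest on few reads.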
